A study of Mus musculus with 23 samples.

Results

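Selective autophagy receptors are the proteins that carry ubiquitin-marked or otherwise tagged cargo into the autophagosome. The 10 genes described here are Sqstm1, Nbr1, Tax1bp1, Optn, Tollip, Calcoco1, Bnip3l, Wdfy3, Htt and Ubqln2. They were taken by name from the 35825 genes of the deposited table, and all 10 passed the filter on low values that left 17102 genes for testing. The table holds 23 RNA-seq libraries of retinal microglia sorted as GFP-positive cells from CX3CR1-GFP mice, in which the Cx3cr1 promoter drives GFP. WT libraries came from CX3CR1-GFP mice, and KO libraries from the CX3CR1-GFP line made homozygous for a null Spp1 allele in all tissues. Per the study's methods the parental line was heterozygous for the GFP allele, and retinas of several mice were pooled for each sort. The study's legend on receptor expression gives n = 4 mice, so whether a library is 1 mouse or a pool is not settled here. The p-values measure the spread between libraries, and the labels give no age of the mice. Each genotype was sampled as control (4 WT and 4 KO libraries, called naive here), 4 weeks after intraocular pressure (IOP) was raised with microbeads (4 WT and 4 KO) and on day 7 after a crush of one optic nerve (ONC, 3 WT and 4 KO). The labels do not say whether the control eyes were untreated. In the study's methods, controls of the microbead model were injected with saline. The libraries held between 22180480 and 30296094 reads on genes. Values are normalized counts, that is, reads divided by 1 size factor per library, so 3 reads correspond to between 2.41 and 4.03 normalized counts.

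In macroautophagy a double membrane closes around cytoplasm and delivers it to the lysosome. Selectivity comes from receptors that hold the cargo with one part and LC3 or GABARAP proteins, which coat the growing membrane, with another. Several of these receptors bind ubiquitin, others sit in the membrane of the organelle to be removed, and large scaffold proteins gather receptors and membrane at the cargo. Microglia are the phagocytes of the retina and share this lysosomal route for engulfed debris.

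The checks of labels and cell type come before the results. Spp1, the targeted gene, ranged from 334 to 1518 normalized counts in WT naive, from 1343 to 2772 in WT IOP and from 14556 to 22906 in WT ONC libraries. In the libraries labelled KO it was 350.2, 53.1, 6.78 and 81.6 in the naive group, 25.5, 811, 9.28 and 761 after IOP elevation, and 4750.3, 6811, 15.0 and 6226 after ONC. The reads in KO ONC 1, 2 and 4 in particular go against a loss of Spp1 RNA under that label, so every comparison between genotypes below compares libraries labelled KO with libraries labelled WT. All 12 microglia markers were above 0 in every library, and their sum was between 1.20% and 3.62% of all normalized counts. All 14 rod photoreceptor markers were above 0 in every library as well, with sums from 0.521% to 3.74%. KO naive 3 stood apart from its group, with microglia markers at 3.51% against 1.20% to 1.63% and rod markers at 1.19% against 3.17% to 3.74%. WT ONC 2 stood apart in the other direction, with rod markers at 1.95% against 0.521% and 0.621%. Cx3cr1 itself, which carries the GFP insertion, lay between 952 and 1233 normalized counts in the KO IOP libraries and between 26836 and 54612 in the WT IOP libraries.

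The sequences shown are the 250 bases before a RefSeq start site of the 4 receptors that were called lower after ONC in WT. They are RefSeq promoters of build GRCm38.p6, printed 5′ to 3′ on the strand of the gene. The windows are chr6:52713915-52714164 (plus strand) for Tax1bp1, chr11:101551857-101552106 (plus strand) for Nbr1, chr7:141902462-141902711 (minus strand) for Tollip and chr15:102722179-102722428 (minus strand) for Calcoco1. Capitals mark a match to one of 4 motifs searched on both strands. Of the 2 windows that the table holds for Tax1bp1, the one with a match is shown, and of the 2 for Nbr1 the one nearer to the annotated gene start. The RefSeq start used for Tollip lies inside the GENCODE gene, 16046 bases from its annotated start, and that of the Tax1bp1 window shown lies 436 bases from it, while the Tax1bp1 window without a match ends at the annotated start.
Tax1bp1: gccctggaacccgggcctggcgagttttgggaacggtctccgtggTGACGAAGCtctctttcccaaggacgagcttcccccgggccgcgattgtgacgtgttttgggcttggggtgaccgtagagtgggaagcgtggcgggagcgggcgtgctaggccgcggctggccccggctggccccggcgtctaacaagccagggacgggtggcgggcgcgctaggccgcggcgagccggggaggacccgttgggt
Nbr1: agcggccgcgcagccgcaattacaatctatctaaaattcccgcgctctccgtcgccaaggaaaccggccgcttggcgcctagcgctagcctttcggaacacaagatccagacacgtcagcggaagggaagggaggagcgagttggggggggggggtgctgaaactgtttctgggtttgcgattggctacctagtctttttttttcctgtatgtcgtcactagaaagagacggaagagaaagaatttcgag
Tollip: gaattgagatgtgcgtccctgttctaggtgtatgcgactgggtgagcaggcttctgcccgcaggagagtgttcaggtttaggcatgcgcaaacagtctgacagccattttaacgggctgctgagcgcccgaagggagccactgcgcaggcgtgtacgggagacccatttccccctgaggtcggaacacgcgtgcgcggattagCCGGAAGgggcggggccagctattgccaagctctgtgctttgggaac
Calcoco1: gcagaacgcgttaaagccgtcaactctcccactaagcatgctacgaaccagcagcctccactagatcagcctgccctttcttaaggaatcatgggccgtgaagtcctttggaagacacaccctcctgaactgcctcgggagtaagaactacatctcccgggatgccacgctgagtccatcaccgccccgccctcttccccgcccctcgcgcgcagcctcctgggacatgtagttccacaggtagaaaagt
The capitals in Tax1bp1 are the antioxidant response element core TGACNNNGC, which 10.2% of the 32851 windows in the table hold. The capitals in Tollip are the ETS core CCGGAAG, held by 6.91% of windows. The E-box core CACGTG (6.02% of windows), by which Tfeb binds lysosomal genes, and the PU.1 core GAGGAAGT (2.44%) were not found in these 4 windows. Among the 9 windows of the 7 members with a RefSeq promoter in the table, no other match was found.

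Per length, the receptors covered a wide range of levels. In WT naive libraries Sqstm1 was highest, with 3745 ± 197 normalized counts per kb of exon (mean ± SD, n = 4), above 98.6% of the tested genes with a known length. Bnip3l followed with 1609 ± 56.1 per kb and Tollip with 1169 ± 81.0 per kb. Nbr1 (789 ± 33.9 per kb) and Tax1bp1 (702 ± 41.9 per kb) came next, above 91.1% and 90.0% of genes. Lower levels were found for Optn at 179 ± 91.8 per kb, Wdfy3 at 163 ± 3.74 per kb and Calcoco1 at 144 ± 20.8 per kb, and the ranges of Optn and Wdfy3 and of Wdfy3 and Calcoco1 overlapped. Ubqln2 (46.5 ± 17.8 per kb) and Htt (18.8 ± 3.07 per kb) were the 2 lowest, above 40.3% and 26.6% of genes. Sqstm1, Bnip3l and Tollip held the first 3 places in each of the 6 group means, although Bnip3l and Tollip overlapped in KO naive and Tollip overlapped with its lower neighbour in WT IOP and KO IOP. The last place belonged to Htt in 5 groups and to Ubqln2 in KO ONC, and the values of both genes overlapped in WT ONC, KO naive, KO IOP and KO ONC. The 10 genes together summed to between 34193 and 42943 normalized counts per library.

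**Figure D1:**
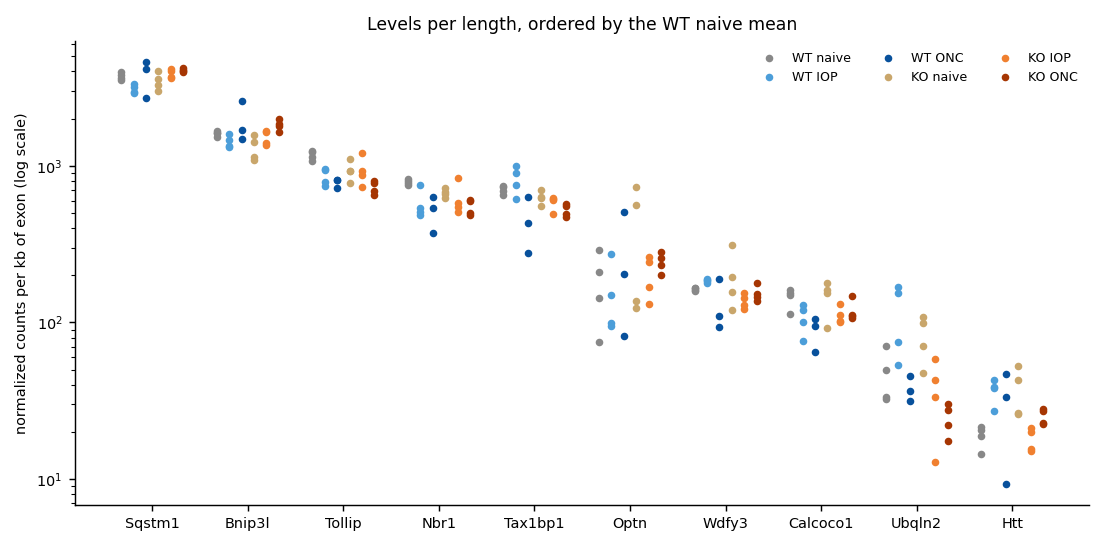
Normalized counts per kb of exon (log axis) of the 10 receptors, each point 1 library, coloured by group and ordered by the WT naive mean. Sqstm1 lies above the other 9 genes in every library, and Ubqln2 and Htt have the lowest WT naive means.

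Nerve crush in WT retinas was followed by lower values of 4 of the 10 receptors, namely Tax1bp1, Nbr1, Calcoco1 and Tollip, and by a higher value of none. A gene was called changed at a Benjamini-Hochberg adjusted p below 0.05 over all 17102 genes and a log2 fold change beyond 0.58 in limma, and 10.5% of all tested genes were called lower in this comparison. The 4 called genes were also the 4 members whose WT ONC and WT naive libraries did not overlap, against 26.4% of all genes. The median log2 fold change of the 10 was −0.31, beside −0.10 over all tested genes. After ONC in the libraries labelled KO, 1 of the 10 was called, Ubqln2, and it was lower, where 11% of genes were called lower and 23.6% in either direction. Of the 10 members, 3 did not overlap between KO ONC and KO naive (Nbr1, Ubqln2 and Bnip3l), against 26.5% of genes, and the median was −0.27 beside −0.12.

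**Figure D2:**
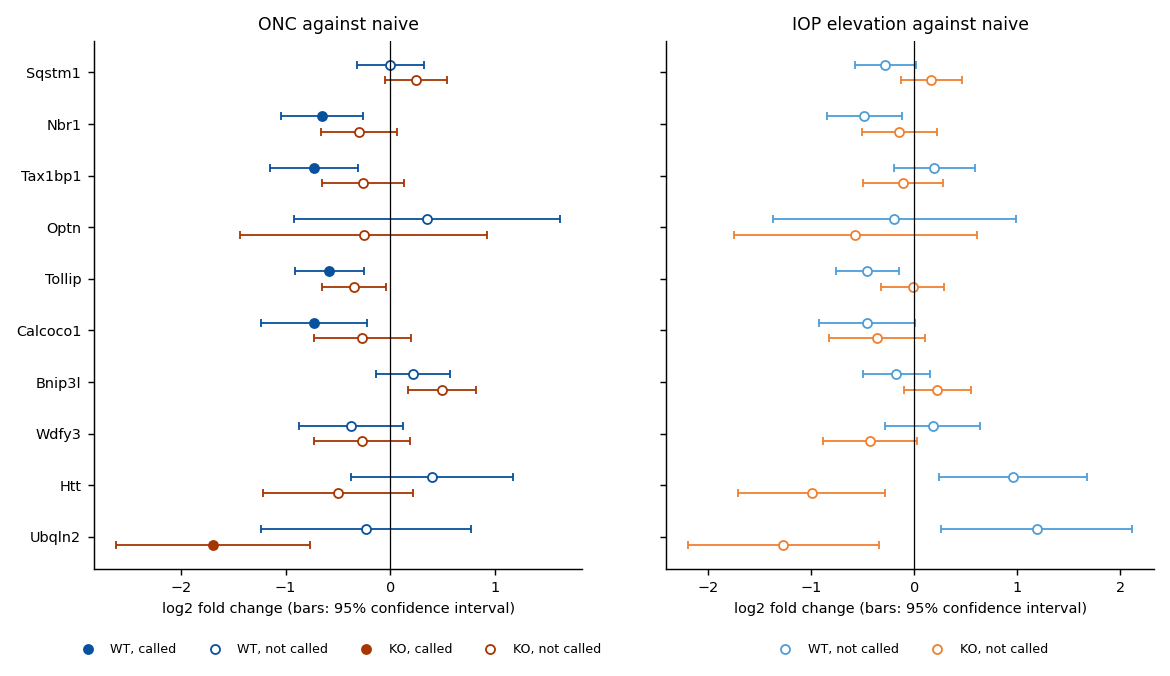
Log2 fold change of each receptor after ONC (left) and after IOP elevation (right) against naive libraries of the same genotype, with 95% confidence intervals from limma and filled points for called genes. After ONC, Nbr1, Tax1bp1, Tollip and Calcoco1 are called lower in WT and Ubqln2 in KO, and none is called after IOP elevation.

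Sqstm1 (chr11:50199366-50210827, minus strand of GRCm38, as for all genes here) encodes p62, a receptor that binds ubiquitin chains and LC3 and is itself degraded with its cargo. In WT naive libraries it had 11833, 12262, 12832 and 13351 normalized counts. The WT ONC libraries had 15472, 9084 and 13988, with WT ONC 2 as the lowest of all 23 libraries and WT ONC 1 as the highest. The KO naive libraries had 11964, 10108, 13432 and 11004 normalized counts. In KO ONC the values were 13583, 13707, 14070.1 and 13299, a narrow range whose lower end fell below KO naive 3. Sqstm1 did not pass the test after ONC in WT (log2 fold change 0.00 ± 0.15 SE, 95% confidence interval −0.32 to 0.32) or in KO (0.24 ± 0.14, −0.06 to 0.54). After IOP elevation it had 9722, 10626, 11125 and 9910.3 normalized counts in WT and 13438, 12401, 13879 and 12236 in KO. The WT IOP libraries thus lay below every WT naive library, and KO IOP above every WT IOP library, but neither difference passed the test (−0.28 ± 0.14, adjusted p = 0.406, and 0.33 ± 0.14, adjusted p = 0.196). Sqstm1 made up between 25.0% and 41.4% of the summed counts of the 10 genes, the lowest in WT ONC 2 and the highest in WT ONC 1. Its exons share 580 bases with Mrnip on the opposite strand, a gene with a mean of 110.1 normalized counts.

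Nbr1 (chr11:101552149-101581951, plus strand) encodes a partner of p62 that also binds ubiquitin and LC3 and takes part in the removal of aggregates and peroxisomes. It had 5688, 5143, 5506 and 5338 normalized counts in WT naive libraries. After ONC in WT it had 2573, 4324 and 3669.6, so that all 3 lay below the lowest naive library. The log2 fold change was −0.65 ± 0.19 (adjusted p = 0.0197). In KO, 4956, 4504, 4284 and 4661 normalized counts in naive libraries stood against 3328, 3456, 4068 and 4146 after ONC. These groups did not overlap either, but the smaller difference did not pass the test (−0.30 ± 0.17, adjusted p = 0.217). After IOP elevation Nbr1 had 3469.8, 3720.4, 5216 and 3320.0 normalized counts in WT and 5745, 3963, 3466 and 3763 in KO. In both of these groups 1 library reached its naive range or beyond, and the differences from naive were −0.49 ± 0.17 in WT (adjusted p = 0.202) and −0.15 ± 0.17 in KO (adjusted p = 0.617).

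Tax1bp1 (chr6:52713729-52766780, plus strand) encodes a ubiquitin-binding receptor that helps to clear protein aggregates and intracellular bacteria and also restrains inflammatory signalling. Its normalized counts in WT naive libraries were 7404, 6495, 7296 and 6857. In WT ONC they were 2773, 6323 and 4288, the first of which was the lowest of all libraries. All 3 were below the naive range, by 0.73 ± 0.20 on the log2 scale (adjusted p = 0.0156), and WT ONC 2 missed that range by little. The KO naive libraries had 7011, 6208, 5556 and 6282 normalized counts and the KO ONC libraries 5507, 4718, 4952 and 5667. These ranges overlapped, and the difference of −0.26 ± 0.19 did not pass the test (adjusted p = 0.314). After IOP elevation Tax1bp1 had 8956, 6175, 7559 and 9919 normalized counts in WT and 6115, 6010.3, 6186 and 4928 in KO. WT IOP 4 and WT IOP 1 held the highest values of the gene, and KO IOP was lower than WT IOP by 0.47 ± 0.19 (adjusted p = 0.162), with WT IOP 2 inside the range of KO IOP.

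Tollip (chr7:141874813-141918507, minus strand) encodes an adaptor of Toll-like and interleukin-1 receptors whose CUE domain binds ubiquitin and which can act as an autophagy receptor. It had 6275, 5410.0, 5749.8 and 6217 normalized counts in WT naive libraries and 4089, 4115 and 3623 in WT ONC. The 3 crushed libraries were close to each other and below every naive library, at a log2 fold change of −0.58 ± 0.16 (adjusted p = 0.0142). In KO the naive libraries had 5554, 3923, 4692 and 4714 normalized counts and the ONC libraries 3515, 3290.3, 3913 and 4038. KO naive 2 lay inside the ONC range, and the difference of −0.35 ± 0.15 did not pass the test (adjusted p = 0.0874). After IOP elevation the WT libraries had 3755, 4809, 4733 and 4009.5 normalized counts, below all WT naive libraries, at −0.46 ± 0.15 and an adjusted p of 0.137. KO IOP libraries had 6091, 4708, 4402 and 3682 normalized counts, around the KO naive range, at −0.01 ± 0.15.

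Optn (chr2:5020642-5064051, minus strand) encodes optineurin, a receptor for damaged mitochondria and bacteria that is mutated in some forms of glaucoma and motor neuron disease. Its values differed between libraries of the same group more than those of most other members. WT naive libraries had 282, 540.1, 783 and 1089 normalized counts and WT ONC libraries 306, 1914 and 765. KO naive libraries had 2748, 2096, 461 and 513, so that 2 libraries held the highest values of all 23 and the other 2 lay within the WT naive range. In KO ONC the values were 1049, 878, 969 and 749.9. IOP elevation left 1024, 562, 355 and 374 normalized counts in WT and 493, 986, 631 and 913 in KO. No comparison of Optn passed the test, and the intervals were wide: −0.92 to 1.62 for ONC in WT, −1.43 to 0.92 for ONC in KO and −0.33 to 2.02 for KO against WT in naive libraries. The exons of Optn share 73 bases with an antisense gene, 4930551O13Rik.

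Calcoco1 (chr15:102706777-102722178, minus strand) encodes a receptor for the selective removal of endoplasmic reticulum and Golgi membrane. Calcoco2, its relative known as NDP52 in other species, was listed at 0 in 22 of the 23 libraries and reached 2.04 normalized counts in the other. Calcoco1 had 858, 653, 881 and 918 normalized counts in WT naive libraries and 370.4, 604 and 540.4 in WT ONC. The highest crushed library lay just below the lowest naive one, and the log2 fold change was −0.73 ± 0.24 (adjusted p = 0.0395). KO naive libraries had 926, 877, 525 and 1017 normalized counts, KO naive 3 being the lowest, and KO ONC libraries had 637, 607, 627 and 847. Their difference of −0.27 ± 0.22 did not pass the test (adjusted p = 0.396). KO ONC lay above WT ONC in every library, by 0.44 ± 0.24, which did not pass the test either (adjusted p = 0.601). IOP elevation gave 437, 740.1, 572 and 686 normalized counts in WT and 582, 573, 641 and 747 in KO, with differences from naive of −0.46 ± 0.22 (adjusted p = 0.384) and −0.36 ± 0.22 (adjusted p = 0.310).

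Bnip3l (chr14:66985239-67008877, minus strand) encodes NIX, a receptor in the outer mitochondrial membrane that removes mitochondria without a need for ubiquitin. It was the member with the highest values after ONC relative to naive in KO. The KO naive libraries had 4218, 4384, 6103 and 5482 normalized counts, and the KO ONC libraries 6339, 7677, 6963 and 7162. The groups did not overlap, and the difference of 0.49 ± 0.16 had an adjusted p of 0.0257 but stayed under the fold threshold. WT naive libraries had 6438, 6261, 5917 and 6225 normalized counts, above 3 of the 4 KO naive libraries. In WT ONC the values were 10032, 5736 and 6529.7, with WT ONC 1 the highest of all libraries and WT ONC 2 below the naive range. The WT difference was 0.22 ± 0.17 (adjusted p = 0.386). After IOP elevation Bnip3l had 5164, 5090.1, 5659.7 and 6182 normalized counts in WT and 6317, 5370.4, 6480.0 and 5220.2 in KO, neither of which passed the test.

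Wdfy3 (chr5:101832956-102069921, minus strand) encodes ALFY, a very large scaffold that bridges aggregates bound by p62 to the autophagy machinery. WT naive libraries had 2479, 2536, 2549.7 and 2425 normalized counts and WT IOP libraries 2849, 2812, 2903 and 2758. These groups did not overlap and each varied by little, but their difference was small (0.18 ± 0.22, adjusted p = 0.780). In WT ONC the values were 1432, 2914 and 1693, with WT ONC 2 above and the other 2 below the naive range, at −0.38 ± 0.24 (adjusted p = 0.273). The KO naive libraries had 2417, 2993, 1829.9 and 4778 normalized counts, the KO IOP libraries 1872, 2378, 1974 and 2182, and the KO ONC libraries 2241, 2719, 2116 and 2326. KO naive 4 was the highest of all 23, and no KO comparison passed the test. Without WT ONC 2 the WT ONC difference was −0.68 with an adjusted p of 0.0327, and without KO naive 3 the KO IOP difference was −0.64 with an adjusted p of 0.0369, so both would then be called lower.

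Htt (chr5:34761740-34912534, plus strand) encodes huntingtin, a scaffold that binds p62 and the kinase Ulk1 and is best known for its expanded repeat in Huntington disease. It had 499.8, 525, 462 and 355 normalized counts in WT naive libraries and 927, 668, 1048 and 949 in WT IOP. The groups did not overlap, but the log2 fold change of 0.96 ± 0.34 had an adjusted p of 0.201. In KO the order was the opposite, with 649, 1291, 639 and 1050.5 normalized counts in naive libraries and 371, 491, 516 and 379 after IOP elevation. These did not overlap either, and the difference of −0.99 ± 0.34 had an adjusted p of 0.0730. After ONC the WT libraries had 228, 1147 and 818 normalized counts, on both sides of the naive range, and the KO libraries had 684, 666, 558 and 551. Neither genotype passed the test after ONC (0.39 ± 0.37 and −0.50 ± 0.34), but without WT ONC 1, the lowest library, the WT difference was 1.09 with an adjusted p of 0.0168.

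Ubqln2 encodes ubiquilin 2, which shuttles ubiquitinated proteins to the proteasome and also acts in autophagy, and which is mutated in a form of motor neuron disease. Its gene lies on chromosome X (chrX:153498227-153501570, plus strand). WT naive libraries had 111, 109, 235 and 167 normalized counts and WT ONC libraries 106, 152 and 122, with overlapping ranges. KO naive libraries had 238, 333, 159 and 364, and KO ONC libraries 101, 58.7, 73.9 and 92.6. All 4 KO ONC libraries lay below all KO naive ones, at a log2 fold change of −1.69 ± 0.45 (adjusted p = 0.00824), which was the largest change of any member after injury. KO ONC also lay below WT ONC in every library, but that difference did not pass the test (−0.64 ± 0.48, adjusted p = 0.724). After IOP elevation the WT libraries had 559.7, 252, 179 and 513 normalized counts and the KO libraries 42.8, 195, 111 and 142. WT IOP 1 and 4 held the 2 highest values of the gene, and the differences from naive were 1.19 ± 0.45 in WT (adjusted p = 0.228) and −1.27 ± 0.45 in KO (adjusted p = 0.0760).

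**Figure D3:**
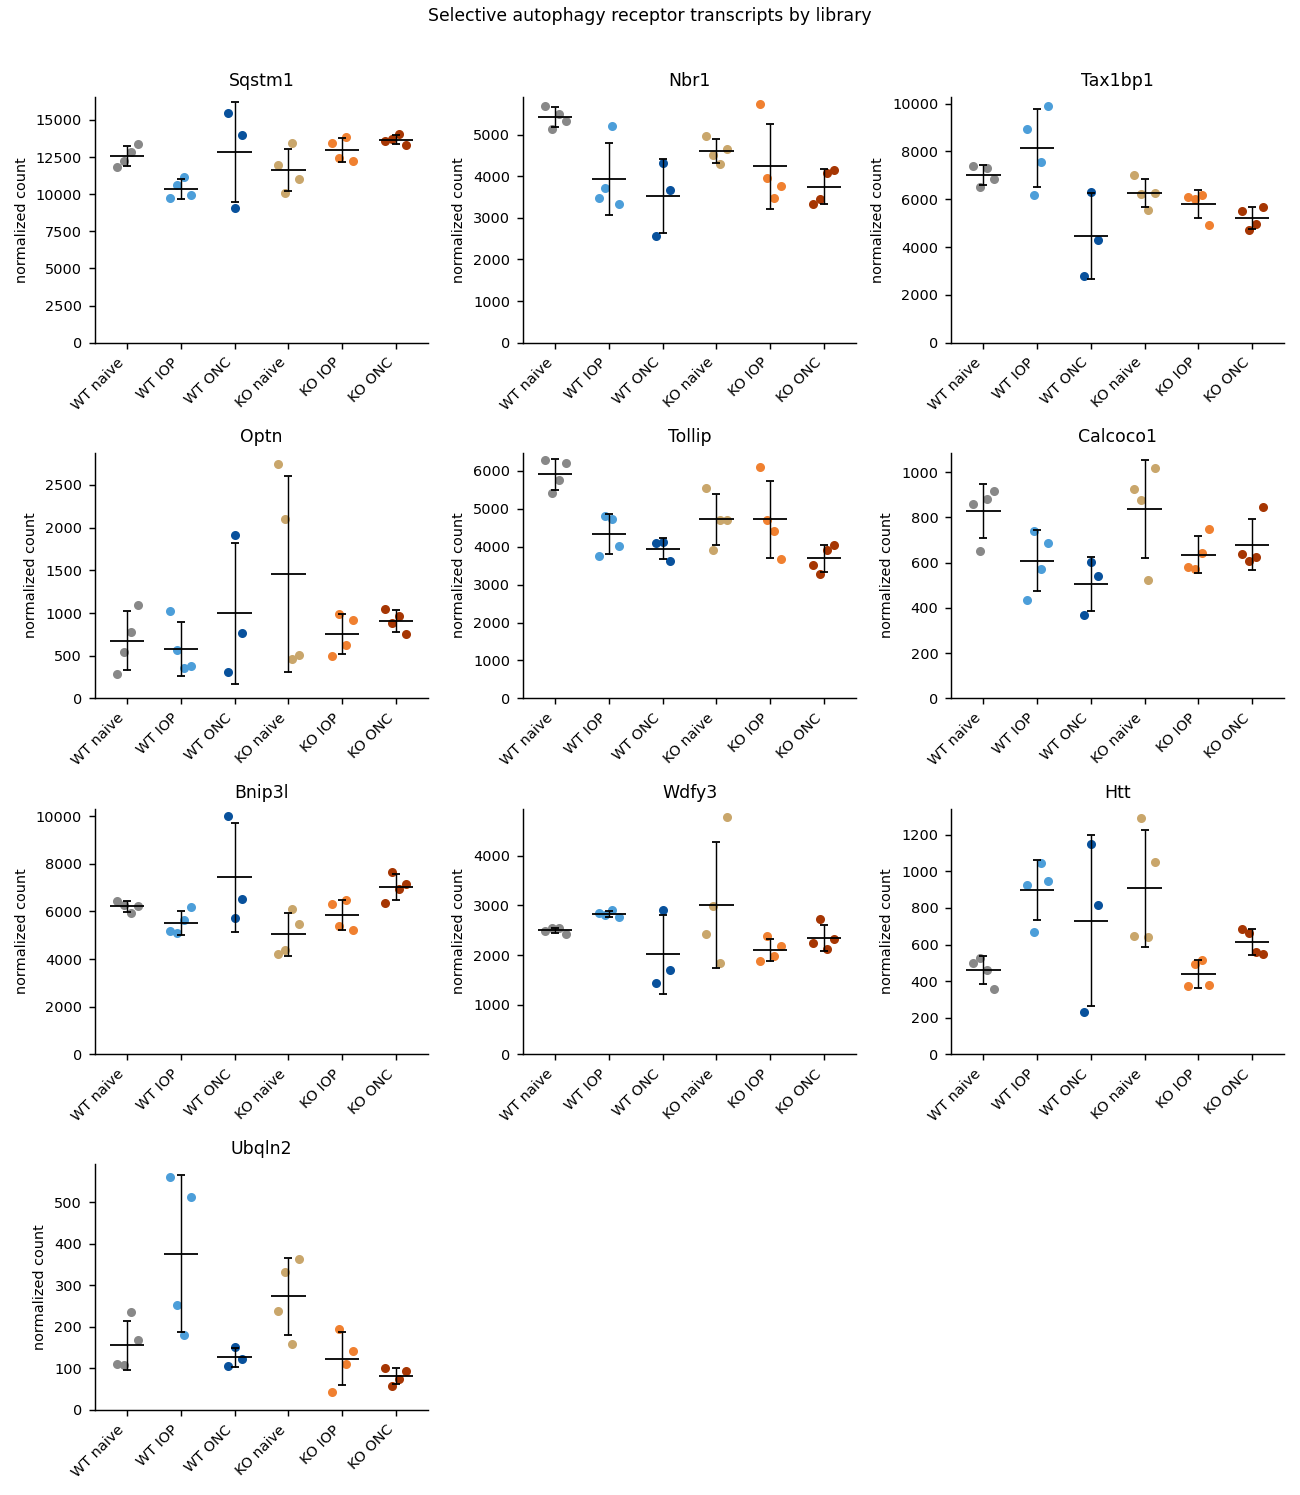
Normalized counts (linear axis from 0) of the 10 receptors by group, each point 1 library, with the mean as a line and 1 SD as the bar. Nbr1, Tax1bp1, Tollip and Calcoco1 in WT ONC lie below WT naive, and Ubqln2 in KO ONC lies below KO naive.

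The 4 calls after ONC in WT rested on 3 libraries whose marker levels differed. Rod markers were at 1.52% to 1.87% of counts in WT naive and at 0.521%, 1.95% and 0.621% in WT ONC 1, 2 and 3, and microglia markers at 2.86% to 3.62% against 3.56%, 2.53% and 3.56%. Markers of other cell types moved as well: border macrophage and monocyte markers were at 0.0693% to 0.149% in WT naive and at 0.0112% to 0.0265% in WT ONC (5 of 10 called lower, median log2 fold change −2.35), ganglion cell markers had 6 of 9 called lower (median −2.81) and interneuron markers 5 of 10 (median −1.33). The part of these 3 lists in the calls was not tested. In bulk libraries fewer cells of a type and less RNA per cell cannot be told apart. With the mean log2 value of the rod markers as a covariate, Tollip remained called (−0.60, adjusted p = 0.0262), while Tax1bp1 (−0.45, 0.0904), Nbr1 (−0.54, 0.0837) and Calcoco1 (−0.51, 0.199) did not. That fit called 10.3% of all genes, 6.27% as lower, beside 18.1% and 10.5% without the covariate. Over the 20 alternatives run for each gene adjusted p reached from 0.00123 to 0.0626 for Tollip, 0.000256 to 0.155 for Tax1bp1, 0.00394 to 0.162 for Nbr1 and 0.00703 to 0.231 for Calcoco1. Without WT ONC 1, Tax1bp1 (−0.43, adjusted p = 0.156), Nbr1 (−0.44, 0.162) and Calcoco1 (−0.52, 0.231) were no longer called, while Htt was called higher (1.09, adjusted p = 0.0168), and 5.44% of all genes were then called lower and 3.09% higher. Tollip was no longer called without WT ONC 3 (−0.52, adjusted p = 0.0626), and without WT naive 1 or WT naive 4 its difference of −0.56 fell short of the fold threshold. Calcoco1 also lost its call without WT ONC 3 (adjusted p = 0.0649) or without WT naive 1, 3 or 4 (0.0804, 0.0860 and 0.0871). Without WT ONC 2, the library with more rod markers, the 4 genes were lower by 1.02 (Tax1bp1), 0.82 (Nbr1), 0.87 (Calcoco1) and 0.62 (Tollip) on the log2 scale, and 5 of the 10 members were called lower, Wdfy3 being the fifth, beside 17.5% of all genes.

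For Ubqln2 after ONC in KO, rod markers moved with the groups as well. They were at 3.17%, 3.36%, 1.19% and 3.74% in the KO naive libraries and at 0.734% to 1.07% in KO ONC, and microglia markers at 1.20%, 1.48%, 3.51% and 1.63% against 2.83% to 3.39%. Ganglion cell markers (median log2 fold change −2.35, 6 of 9 called lower) and interneuron markers (−1.25, 7 of 10) fell too. Muller glia markers had a median of −0.62 (4 of 7 called lower), where 11% of all genes were called lower. The part of these 3 lists in the call was not tested. With the rod covariate the difference in Ubqln2 was −0.95 (adjusted p = 0.455) and with a microglia marker covariate −0.73 (adjusted p = 0.609), so it was not called under either. These covariates left 2.92% and 2.32% of all genes called in this comparison, beside 23.6% without a covariate. Over all 21 alternatives its adjusted p ranged from 0.000554 to 0.609, and leaving out KO naive 3 gave −1.93 (adjusted p = 0.00374). Without that library Bnip3l after ONC passed the fold threshold too (0.59, adjusted p = 0.00763), with 14.7% of all genes called lower and 15.1% higher. With the rod covariate the difference in Bnip3l was 0.18 (adjusted p = 0.702), with the microglia covariate 0.12 (0.83) and with quantile normalization 0.12 (0.520), and over its 21 alternatives adjusted p ranged from 0.00286 to 0.83.

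IOP elevation against naive gave no call among the 10 receptors in either genotype, beside 1.56% of all tested genes in WT and 7.88% in KO. At an unadjusted p under 0.05 there were 4 members in WT, namely Nbr1, Tollip, Htt and Ubqln2, and 2 in KO, Htt and Ubqln2, beside 13.3% and 27.1% of all tested genes. By edgeR no member was called in either genotype, beside 1.245% of all genes in WT and 3.27% in KO. By DESeq2 none was called in WT and 1 in KO, Htt at −1.05 with an adjusted p of 0.0260, beside 3.39% and 11.2% of all genes. In WT, 4 members did not overlap between IOP and naive libraries (Sqstm1, Wdfy3, Htt and Tollip), against 13.8% of all genes, and in KO 1 member (Htt) did not, against 11.7%. Median log2 fold changes of the 10 were −0.18 in WT and −0.25 in KO, beside −0.02 and −0.12 over all tested genes. Leaving out KO naive 3 brought the KO count to 3, all lower: Htt (−1.14, adjusted p = 0.0352), Ubqln2 (−1.504, 0.0299) and Wdfy3 (−0.64, 0.0369), while the share of all genes called rose to 18.6%. With the rod covariate the KO differences were −0.45 for Htt (adjusted p = 0.75) and −0.74 for Ubqln2 (0.682), and over the 21 alternatives adjusted p ranged from 0.0142 to 0.75 and from 0.0271 to 0.682. The rod covariate left 0.0351% of all genes called after IOP elevation in KO.

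The difference between the genotypes in their response to IOP elevation was called for 2 members, Htt and Ubqln2, both in the negative direction, where 8.75% of all tested genes were called and 3.9% were in that direction. Htt was higher after IOP elevation in WT and lower in the libraries labelled KO, which gave an interaction of −1.95 ± 0.49 on the log2 scale (95% confidence interval −2.97 to −0.94, adjusted p = 0.0191). For Ubqln2 the interaction was −2.46 ± 0.63 (−3.77 to −1.15, adjusted p = 0.0212). Microglia markers were at 1.89%, 2.97%, 3.18% and 2.09% of counts in WT IOP 1 to 4 and rod markers at 2.56%, 1.64%, 1.88% and 2.77%, so WT IOP 1 and 4, which were highest in Ubqln2, were also the WT IOP libraries with the most rod and the fewest microglia marker counts. Lens markers stood at 0.878%, 0.185%, 0.129% and 0.953% in WT IOP 1 to 4, highest in the same 2 libraries. WT naive libraries had lens markers at 0.00912% to 0.0182%, and KO IOP libraries at 0.00475% to 0.00657%. The median log2 fold change of the lens markers was 5.61 after IOP elevation in WT (12 of 12 higher). For the interaction it was −7.12 (11 of 12 lower). KO IOP libraries had microglia markers between 2.81% and 3.56% and rod markers between 0.899% and 1.58%. With the rod covariate the interactions were −1.19 for Htt (adjusted p = 0.298) and −1.71 for Ubqln2 (0.282), and with the microglia covariate −1.39 (0.268) and −1.60 (0.309), so none of these was called. These covariates left 0.906% and 1.04% of all genes called for the interaction, beside 8.75% without a covariate. Adjusted p over the 29 alternatives ranged from 0.00129 to 0.298 for Htt and from 0.00235 to 0.309 for Ubqln2. Htt lost its call without KO naive 2 (−1.76, adjusted p = 0.0516), and Ubqln2 without WT IOP 1 (0.0595), WT IOP 4 (0.0574), KO naive 2 (0.0534) or KO naive 4 (0.0534). Other retinal markers moved too. After IOP elevation, ganglion cell markers had a median log2 fold change of 0.89 in WT (7 of 9 higher). In KO it was −1.32 (9 of 9 lower), and the median interaction was −1.94 (9 of 9 lower). Median interactions were −1.32 for Muller glia markers (7 of 7 lower) and −0.57 for interneuron markers (6 of 10 lower), beside −0.08 over all tested genes. The part that these markers, the lens markers or the low Cx3cr1 of KO IOP have in these differences was not tested.

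**Figure D4:**
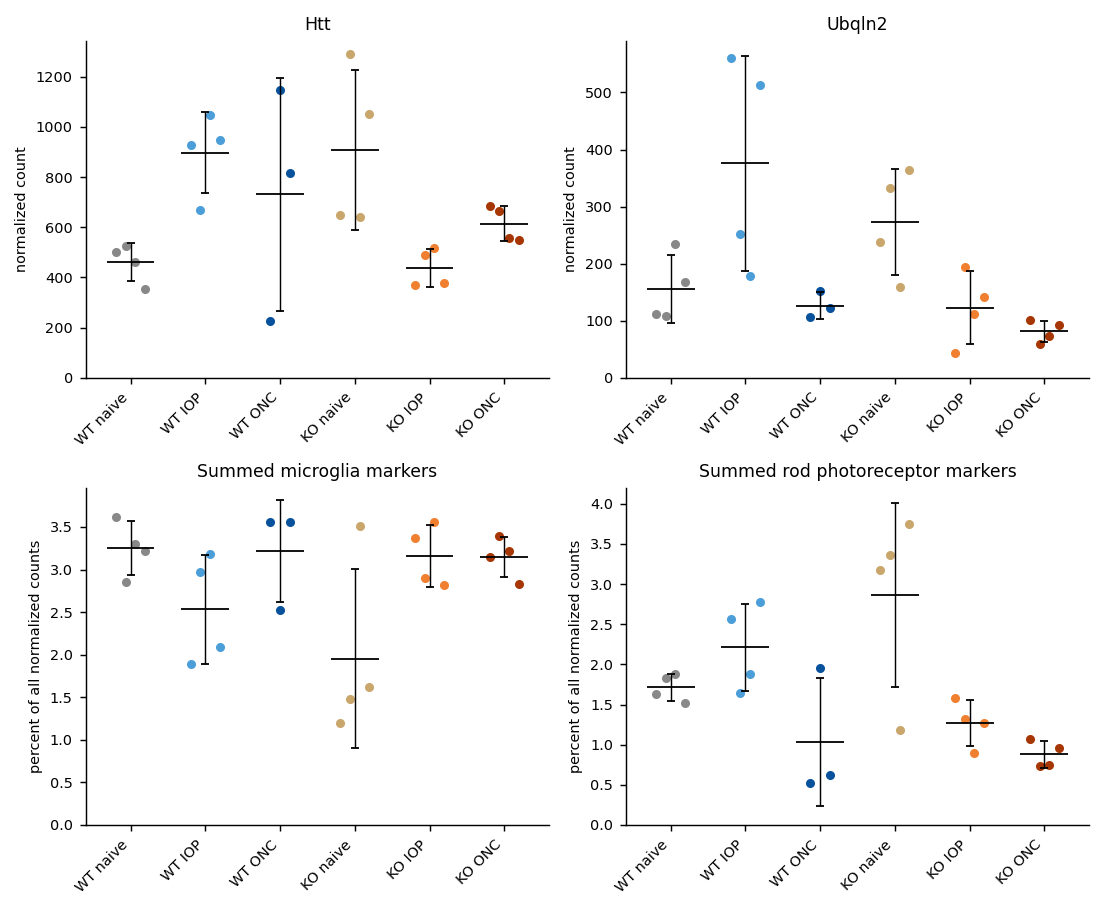
Htt and Ubqln2 in normalized counts (top) and the summed microglia and rod photoreceptor markers in percent of all normalized counts (bottom) by group, each point 1 library, with the mean as a line and 1 SD as the bar. The means of Htt and Ubqln2 are higher in WT IOP than in WT naive and lower in KO IOP than in KO naive, with overlapping libraries for Ubqln2 and no difference past the test, and KO naive holds 3 libraries with low microglia and high rod sums.

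The remaining question was whether the receptors differed between libraries labelled KO and WT in the same condition. None of the 10 was called in naive libraries, after ONC or after IOP elevation, beside 0.409%, 0.0877% and 2.11% of all tested genes. At an unadjusted p under 0.05 there were 2 members in naive libraries (Htt and Tollip), 0 after ONC and 4 after IOP elevation (Ubqln2, Htt, Tax1bp1 and Sqstm1), beside 15.6%, 9.36% and 21.1% of all tested genes. By edgeR 0 members were called in each of the 3, beside 0.152%, 0.0117% and 1.46% of all genes. By DESeq2 0, 0 and 2 were called, the last being Htt and Ubqln2, beside 3.13%, 0.585% and 5.5% of all genes. In naive libraries 2 members did not overlap (Nbr1, lower in KO, and Htt, higher in KO), against 9.6% of all genes, with differences of −0.24 ± 0.17 (adjusted p = 0.539) and 0.93 ± 0.34 (adjusted p = 0.184). Over 21 alternatives the Htt difference ranged from 0.40 to 1.07 (adjusted p from 0.0311 to 0.874). Markers differed as well in KO naive libraries. Microglia markers were lower (12 of 12, median −0.97), and ganglion cell (9 of 9, 0.66) and rod markers (13 of 14, 0.50) were higher. With the rod or the microglia covariate none of the 10 was called in naive libraries, beside 0.4035% and 0.152% of all genes. The part of the ganglion cell markers in the differences was not tested. After ONC, Calcoco1 and Ubqln2 did not overlap, against 6.32% of genes, as described above. After IOP elevation 3 members did not overlap (Sqstm1, Wdfy3 and Htt), against 13% of genes. Ubqln2 was lower in KO IOP than in WT IOP by 1.64 ± 0.45 on the log2 scale (adjusted p = 0.0551) and Htt by 1.03 ± 0.34 (adjusted p = 0.110). Ubqln2 was called in this comparison without WT IOP 2, WT IOP 3 or KO IOP 2 (adjusted p = 0.0477, 0.0282 and 0.0402), and over its 21 alternatives adjusted p ranged from 0.00833 to 0.263. Between KO IOP and WT IOP, lens markers had a median of −8.68 (12 of 12 lower). Ganglion cell markers (−1.16, 9 of 9) and rod markers (−0.73, 14 of 14) were lower too, and microglia markers were higher (0.54, 11 of 12). The part of the lens and ganglion cell markers in the IOP differences was not tested. For ONC the interaction was called for none of the 10, beside 0.0702% of all tested genes and with 1 member at an unadjusted p under 0.05 (12.4% of all genes). By edgeR and by DESeq2 0 were called, beside 0.0175% and 1.32% of all genes. The calls made after ONC in WT and not in KO were thus not shown to differ between the genotypes. For the 4 genes called in WT, the interaction intervals were −0.11 to 1.04 (Tax1bp1), −0.18 to 0.89 (Nbr1), −0.22 to 0.69 (Tollip) and −0.22 to 1.14 (Calcoco1).

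Other genes of selective autophagy were followed by lists chosen by function. Their counts are to be read beside the 7.55% of all tested genes called higher and 10.5% called lower after ONC in WT, and 12.7% and 11% in KO. The LC3 and GABARAP family, which the receptors bind, had 5 tested genes. After ONC in WT, Gabarap rose (5412 ± 178 to 12988 ± 7085 normalized counts, log2 fold change 1.12 ± 0.25, adjusted p = 0.00398) and Gabarapl1 fell (3542 ± 478.5 to 1699.7 ± 361, −1.07 ± 0.18, adjusted p = 0.000245). In KO the same 2 genes were called in the same directions (1.44 ± 0.23 and −0.94 ± 0.16), together with a higher Map1lc3b, which encodes LC3B (0.76 ± 0.17, adjusted p = 0.00216). The median over the 5 genes was 0.42 in WT and −0.07 in KO, beside −0.10 and −0.12 over all tested genes. No gene of this family was called after IOP elevation or between genotypes.

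Among 18 other cargo receptors and adaptors, 17 were tested and Calcoco2 was not. After ONC in WT, 1 rose (Phb2, a mitophagy receptor of the inner mitochondrial membrane, 0.62 ± 0.20) and 1 fell (Sec62, an endoplasmic reticulum receptor, −0.69 ± 0.17). In KO, 2 rose after ONC, Retreg1, which encodes the endoplasmic reticulum receptor FAM134B (1.00 ± 0.26), and Ncoa4, the receptor for ferritin (0.60 ± 0.20). Retreg1 was also higher in KO after IOP elevation (0.96 ± 0.26, adjusted p = 0.0333), and Ccpg1 passed the test for the IOP interaction (0.74 ± 0.22). The medians of the 17 after ONC were −0.11 in WT and 0.06 in KO. Of 15 kinases, scaffolds and regulators of the receptors, 1 rose and 1 fell after ONC in WT. These were Keap1, the adaptor that marks Nrf2 for degradation and binds p62 (0.60 ± 0.18), and Atg13, a subunit of the Ulk1 complex (−0.87 ± 0.17). In KO, Tnip1 rose after ONC (0.66 ± 0.23). The medians of the 15 after ONC were −0.04 and 0.02.

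The transcription factors that are known to raise receptor genes were followed as well. Of 9 genes for Nrf2 and its targets, none was called after ONC in WT, where 18.1% of all genes were. In KO 2 rose after ONC, Hmox1, heme oxygenase 1, from 443 ± 156 to 1864 ± 286.5 normalized counts (2.12 ± 0.24, adjusted p = 4.85e-06) and Nfe2l2, which encodes Nrf2 (1.28 ± 0.25, adjusted p = 0.000856). Hmox1 was lower in KO than in WT naive libraries (443 ± 156 against 1063 ± 202.5, −1.30 ± 0.24, adjusted p = 0.0155). It was higher in KO IOP than in KO naive (1.46 ± 0.24), where Nqo1 was lower (−3.76 ± 1.06), and was called in the IOP interaction (1.60 ± 0.34). After ONC the medians of the 9 were 0.18 in WT and −0.20 in KO. Of the 4 Tfeb family genes, with medians of 0.29 and 0.89, Tfeb rose after ONC in WT (1.43 ± 0.43) and in KO (1.17 ± 0.40), and Tfe3 (0.94 ± 0.20) and Mitf (0.84 ± 0.26) rose in KO. Tfec was lower after ONC in WT, where its highest library had 4.60 normalized counts. Tfe3 was higher in KO after IOP elevation (0.69 ± 0.20), and both Tfe3 (0.93 ± 0.29) and Tfec were called in the IOP interaction. After ONC in KO, rod markers fell (12 of 14 called lower) and microglia markers rose (9 of 12 called higher, median 1.26), and after ONC in WT border macrophage markers fell as given above. In naive libraries all 12 microglia markers and all 10 border macrophage and monocyte markers were lower in KO than in WT (medians −0.97 and −0.86). After IOP elevation in KO their medians were 1.05 and 1.04, with 1 marker of each list lower. The rod and microglia covariates were fitted for all tested genes, but their values for the listed genes are not given here. The part of these markers in the changes of the listed genes was thus not assessed.

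Across the 23 libraries, the genes whose log2 values followed a receptor most closely are given as a description, since all points share the groups and the marker levels above. The nearest gene to Sqstm1 was Aamp (Pearson r = 0.90), to Nbr1 Wdr7 (0.86), to Tollip Sec23a (0.89) and to Calcoco1 Krba1 (0.84). The nearest to Tax1bp1 were Arid3b and the photoreceptor gene Rp1 (both 0.91). For Bnip3l it was Scoc (0.93), for Optn Sarm1 (0.91), for Wdfy3 Kmt2d (0.89), for Htt Fam193a (0.89) and for Ubqln2 Abhd17b (0.88). Among the receptors themselves, Nbr1 and Tollip had the highest r (0.78), and Sqstm1 ran opposite to Htt (−0.73), Wdfy3 (−0.72) and Ubqln2 (−0.71).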

How the data were processed

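The authors deposited 1 table of gene counts divided by a size factor per library (normalized counts, a signal that is not negative). Per the study's methods, 150-base paired-end reads were assigned to GRCm38 with salmon and normalized with DESeq2, while the submitters' processing notes name STAR, DESeq2 and GRCm38, so the counting tool and its use of strand are not settled here. Every value was a whole multiple of what 1 read was worth, within 0.000208 read, in all 23 libraries, and the reads were recovered from it. The lowest library had 22180480 reads on genes. Of the gene identifiers, 35436 matched a symbol of GENCODE M21 without regard to version.

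From these values log2(normalized count + 1) was fitted with limma 3.58.1 (R 4.3.3), with 6 group means over all 23 libraries and a mean-variance trend, for genes with at least 10 normalized counts in at least 3 libraries. Fold changes are on this log2 scale, and p-values were adjusted by the Benjamini-Hochberg method over all 17102 genes. Calls needed an adjusted p below 0.05 and an absolute log2 fold change over 0.58. Alternatives were edgeR 4.0.16 (2641 genes called after ONC in WT, beside 3093 by limma) and DESeq2 1.42.0 (3676) on the recovered reads, other pseudocounts, no filter, other scalings, marker covariates and leaving out each library. The scripts were tested on simulated data. The 10 genes were fixed by name, and they and the other lists were chosen with earlier results of these data known. In each comparison up to 6 called genes of a list were to be named, by size of change. The floor of 3 reads covers counting error only. A result of the list of regulators is not reported here.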

Additional observations from a re-analysis of the deposited data

Results flagged for a closer look

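Of 50 groups of 4 libraries (10 genes in each of 5 groups), 2 held a value far from the other 3, where chance alone would give about 1 in 20 groups. Tax1bp1 was low in KO IOP 4, at 4928 normalized counts against 6010.3 to 6186 in the other KO IOP libraries. Calcoco1 was high in KO ONC 4, at 847 normalized counts against 607 to 637 in the other KO ONC libraries. The response to IOP elevation was called different between the genotypes, by the interaction term in limma, for Htt (−1.95, higher than naive in WT and lower in the libraries labelled KO) and for Ubqln2 (−2.46, in the same directions). Neither interaction was called with the rod or the microglia covariate, or without KO naive 2. In these fits 0.906%, 1.04% and 3.66% of all genes were called, beside 8.75% in the main fit.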

How the results depend on the processing

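For each of the 9 comparisons, the number of the 10 receptors called was recomputed under every alternative. Brackets give the share of all genes called under the same setting. After ONC in WT the count of 4 (18.1%) became 1 with the rod covariate (10.3%) and 1 with the compared groups fitted alone (10.2%). It became 2 to 5 when single libraries were left out (8.5% to 30.5%). After ONC in KO the count of 1 (23.6%) became 4 with quantile normalization (23.55%) and 0 with the rod (2.92%) or the microglia covariate (2.32%). It became 2 without both libraries that stand apart (32.2%), 2 by adjusted p alone (24.9%) and 1 to 2 without single libraries (16.4% to 29.8%). For IOP elevation in WT the count of 0 (1.56%) became 1 with the compared groups alone (3.04%). In KO the count of 0 (7.88%) became 1 with quantile normalization (10.1%), 3 without both libraries that stand apart (21.6%) and 1 with DESeq2 (11.2%). Without single libraries it was 0 to 3 (0.538% to 18.6%). KO against WT in naive libraries gave 1 without both libraries that stand apart. KO against WT after IOP elevation (2.11% in the main fit) gave 1 with upper-quartile rescaling (2.37%), 1 with quantile normalization (2.58%) and 1 with the microglia covariate (6.53%). It gave 2 without both libraries that stand apart (6.8%), 2 with DESeq2 (5.5%) and 0 to 1 without single libraries (0.637% to 3.36%). The IOP interaction (8.75% in the main fit) gave 0 with the rod (0.906%) or microglia covariate (1.04%) and 0 to 2 without single libraries (3.35% to 18.0%). For Sqstm1 it turned from 0.45 to −0.034 with quantile normalization. The cause of these changes was not tested. The microglia covariate and the omission of both libraries that stand apart were chosen after seeing the data. Another scaling moved the median log2 fold change of all tested genes by up to 0.12, so members are read beside that median.

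Replicate numbers did not pair the libraries: same-numbered libraries correlated between −0.25 and 0.23 in their deviations from group means. With the replicate block, 3 receptors were called after ONC in WT (Calcoco1 had an adjusted p of 0.0654), beside 15.2% of all genes, and the count for the other 8 comparisons did not change.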
